A study of Bos taurus with 8 samples.

Results

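The mitochondrial ribosomal protein genes, named MRPL for the large subunit and MRPS for the small subunit, were followed around calving in blood polymorphonuclear leukocytes (PMNL, mostly neutrophils) of dairy cows. Members were all array features whose platform gene symbol was MRPL or MRPS followed by a number and that had a value on at least 7 of the 8 arrays, averaged by symbol. This gave 73 genes, 44 MRPL and 29 MRPS, measured by 126 of the 142 such features on the platform. The 73 genes are among 14491 rows (genes, or features without a symbol) tested. The platform names 75 such genes, and MRPL1 and MRPL32 had no feature that met the minimum. All 73 had a value on all 8 arrays.

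Mitochondria carry their own ribosomes, which translate the few proteins that mitochondrial DNA encodes, nearly all of them subunits of the respiratory chain and ATP synthase. The ribosomal RNAs come from mitochondrial DNA, while every protein of the mitoribosome is encoded in the nucleus, made in the cytosol and imported. Neutrophils have few mitochondria and draw most of their energy from glycolysis, and their precursors in the bone marrow have more mitochondria and more translation than the mature cells.

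RNA came from 8 Holstein cows. In the dry period 4 were fed diet M and 4 diet S, and blood was taken before calving, at day -14 (± 2), and after it, at day +7. Per the labels, the diets of the 45-day dry period were based on wheat straw (1.34 Mcal/kg, enough for 100% or more of the energy the cows were calculated to need) and on corn silage (1.62 Mcal/kg, more than 140%). Which of them the letters M and S stand for is not stated in the labels, and all cows had 1 lactation diet (1.69 Mcal/kg) after calving. The 16 RNA samples were hybridised on 8 two-colour Agilent bovine arrays, in 4 pairings of 2 arrays with the dyes exchanged: diet M beside S at day -14, diet M beside S at day +7, the days of diet M, and the days of diet S. On the diet M day arrays both samples came from 1 cow, whereas those of the diet S day arrays came from different cows. The samples are bulk leukocyte RNA, in which fewer cells of a type and less RNA per cell cannot be told apart.

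The sources used here do not state which dye is on top in the ratios. Signs below take each ratio as Cy5 over Cy3, so that a negative diet value means less signal in M than in S and a negative day value means less at day +7 than at day -14. The other reading turns every sign in this text, and that all 8 arrays run the same way is itself an assumption. Over all rows, the 2 arrays of a pairing, turned to the same direction, correlated at 0.24 for the diets at day -14, 0.07 for the diets at day +7, -0.05 for the days of diet M and -0.12 for the days of diet S. The members correlated at 0.33, 0.37, -0.28 and 0.25 in the same order. Genes are not independent replicates, and these values are a description of how far the arrays agree.

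The arrays held 27679 to 32580 values each, with a median spot brightness (the geometric mean of the 2 whole numbers recovered from a ratio, a lower bound) of 27.9 to 74.4. Member features were brighter than the array as a whole, with a median of 231 against 109 over all features used, and a range of 4.90 to 8141. The number of arrays limits the precision: a comparison had a median standard error (SE) of 0.366 log2 units over all rows. None of the 14491 rows passed an adjusted p of 0.05 in any of the 5 comparisons (0% called, limma with Benjamini-Hochberg adjustment over all rows), so no member did. The results on members are therefore fitted values and counts, with the share of all rows beside the main counts.

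Before calving, most members had less signal in diet M than in diet S. At day -14, 67 of 73 members were negative and 6 positive, where 51.1% of all rows were negative, with a median log2 value of -0.35 (SD over members 0.30) against -0.01 over all rows. On the 2 direct arrays, which carry both diets, the members' medians were -0.54 and -0.37. Of the members, 62 were negative on both of these arrays, beside 33.3% of all rows. At an unadjusted p of 0.05, 7 members were negative and none positive, beside 3.67% of all rows that were negative at that threshold. The count of 7 ranged from 0 to 15 when single arrays were left out and was 0 without both arrays of cow 8041.

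After calving the same side held, with larger values. At day +7, 67 members were again negative and 6 positive, where 50% of all rows were negative, with a median of -0.76 (SD 0.58), a 1.69-fold difference, against 0.00 over all rows. The direct arrays had medians of -0.49 and -0.89, and the second of them carries the diet S sample of cow 8041. At an unadjusted p of 0.05, 42 members were negative and 1 positive, beside 11.7% of all rows that were negative. Of the members, 59 were negative on both direct arrays, beside 28.4% of all rows. On all 4 diet arrays, 53 members were negative and 2 positive, where 18.1% of all rows were negative and 15.4% positive. The diet M samples on these arrays came from cows 7979 and 7977 alone, each on both days. The 4 diet arrays are therefore not independent of each other. Without both arrays of cow 8041 the median was -0.83 with 65 members negative, and the count at an unadjusted p of 0.05 was 4, in a fit with fewer residual degrees of freedom. A total of 19 members had a log2 value of -1 or lower at day +7, beside 9.34% of all rows, and 1 member at day -14, beside 4.7% of all rows, so the values of all rows also spread wider at day +7. The 5 comparisons share samples, so the values of the 2 days are given side by side and not correlated.

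**Figure D1:**
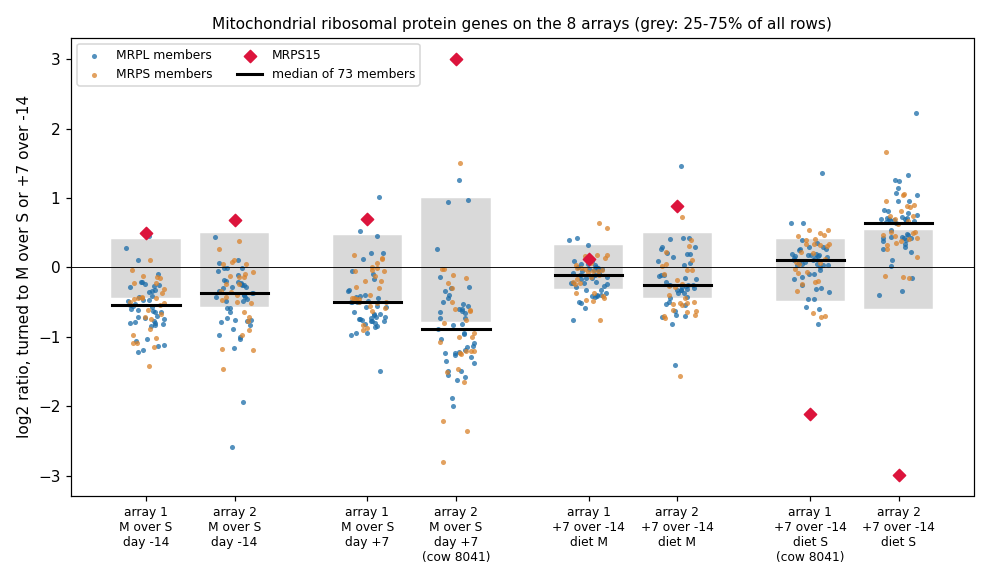
Log2 ratio of each of the 73 members on each of the 8 arrays, turned to diet M over S or day +7 over day -14. Blue points are MRPL genes, orange points MRPS genes, red diamonds MRPS15, black bars the median of the members and grey boxes the 25th to 75th percentile of all rows. The medians of the 4 diet arrays lie between -0.89 and -0.37, those of the diet M day arrays are -0.11 and -0.26, and those of the diet S day arrays 0.10 and 0.64.

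Most members with the smallest p-values for the diets were large-subunit genes. MRPL24, whose bacterial counterpart L24 binds ribosomal RNA early in assembly, read -1.12 and -0.37 on the arrays of the diets at day -14 and -0.71 and -1.37 on those at day +7. Its fitted values were -0.69 ± 0.25 (SE) and -1.10 ± 0.25, 2.14-fold at day +7 (limma adjusted p = 0.0996). Its 3 features gave -1.11, -1.08 and -1.10 at day +7. All 4 diet arrays had this gene below 0. On single arrays the features lay further apart, at -0.50, -0.61 and -1.03 on the first day +7 array.

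MRPL48, a mitochondria-specific protein of the large subunit, read -0.85 and -1.003 at day -14 and -0.77 and -1.49 at day +7. The fitted values were -0.86 ± 0.27 and -1.19 ± 0.27, and the adjusted p at day +7 was 0.0996 (limma). It was the member with the smallest p at day -14, where its adjusted p was 0.716. MRPL16, the counterpart of bacterial L16 near the tRNA-binding centre, read -0.73 and -1.17 before calving and -0.94 and -1.26 after it. Its fitted values were -0.83 ± 0.31 and -1.22 ± 0.31. MRPL48 and MRPL16 were thus also below 0 on all 4 diet arrays, as were 53 of the 73 members in all. MRPL24, MRPL48 and MRPL16 were named for small p-values from the same arrays, so their shared sign adds no support.

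MRPL50, another mitochondria-specific member, read -0.79 and -0.40 at day -14 and -0.84 and -1.58 at day +7, with fitted values of -0.53 ± 0.32 and -1.28 ± 0.32. MRPL11, the counterpart of L11 at the base of the stalk where translation factors bind, read -1.06 and -0.01 at day -14 and -0.50 and -1.35 at day +7. Its fitted values were -0.47 ± 0.25 and -0.99 ± 0.25. The 2 arrays of a pairing differed for both genes by more than the SE.

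MRPL15, the counterpart of bacterial L15, had the lowest value of all members on both days. It read -1.19 and -2.58 at day -14 and -0.82 and -1.99 at day +7, with fitted values of -1.47 ± 0.55 and -1.82 ± 0.55. The gene was dim, with a brightness of 23.5, and its SE was the widest among the members at day +7, where SEs ran from 0.242 to 0.552. MRPL35 was at -0.75 ± 0.30 and -1.13 ± 0.30 on the 2 days, and MRPL14, the counterpart of L14, at -0.72 ± 0.28 and -0.56 ± 0.28. MRPL14 was one of the few members whose value after calving was not the larger one: 64 of 73 had the same sign on both days and the larger size at day +7, as did 58.9% of all rows.

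Among large-subunit genes whose products have known special roles, MRPL3, near the peptidyl transferase centre, was at -0.41 ± 0.28 and -0.98 ± 0.28 for the diets at day -14 and day +7. MRPL10, which anchors the stalk, was at -0.16 ± 0.24 and -0.57 ± 0.24. MRPL41, one of the brightest members at 3174, was at -0.34 ± 0.26 and -0.72 ± 0.26, and MRPL44, which has a ribonuclease III-like fold, at -0.25 ± 0.33 and -0.55 ± 0.33. These genes had the members' common sign. MRPL12, the stalk protein that in human cells has also been found bound to the mitochondrial RNA polymerase, did not. It read -1.13 and -0.29 at day -14 and 1.01 and 0.98 at day +7, with fitted values of -0.07 ± 0.53 and 0.36 ± 0.53. Its 3 features gave 0.82, 0.68 and -0.09 at day +7, so that its sign depends on the feature, and it turned to -0.17 without the second day +7 array.

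**Figure D2:**
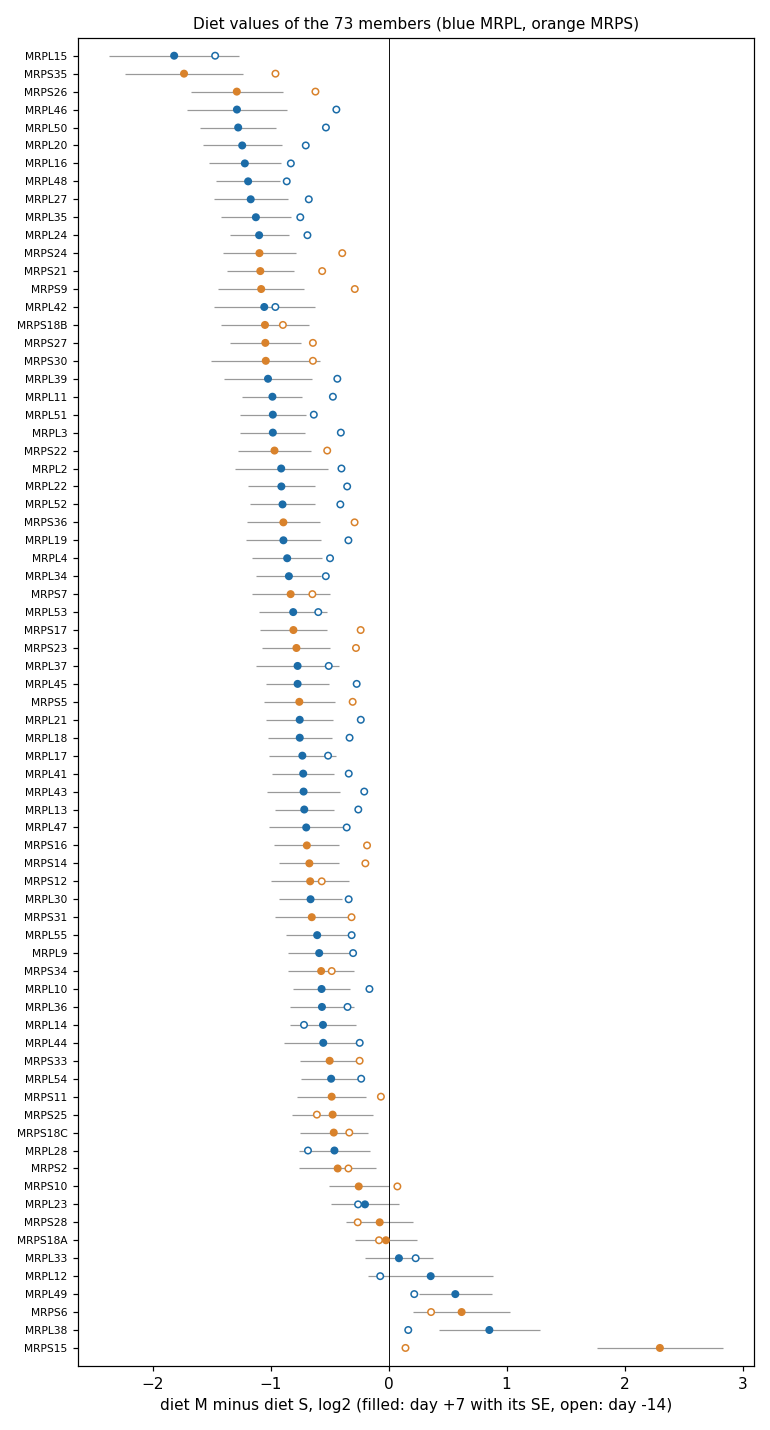
Fitted diet values (M minus S, log2) of all 73 members in order of their day +7 value. Filled points with bars are day +7 with its SE, open points day -14, blue MRPL and orange MRPS. From MRPL15 at -1.82, 67 genes lie below 0 at day +7, and 6 lie above it, with MRPS15 at 2.30.

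The small-subunit genes lay on the same side. At day +7, 27 of 29 MRPS genes and 40 of 44 MRPL genes were negative, with medians of -0.69 and -0.77. At day -14 the medians were -0.31 and -0.40. A split by number gave similar values: the 42 members with the number of a bacterial ribosomal protein (MRPL up to 36, MRPS up to 21) had a median of -0.74 at day +7, and the 31 with higher, mitochondria-specific numbers had -0.78. The number is only a rough guide, since MRPS24 is the counterpart of bacterial S3. None of these differences within the family was tested.

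MRPS35 read -0.97 and -1.17 at day -14 and -0.44 and -2.81 at day +7, with fitted values of -0.96 ± 0.50 and -1.73 ± 0.50. Its 2 features gave -1.15 and -2.32 at day +7, the widest disagreement between features of a member in that comparison. MRPS22, in which human variants cause a deficiency of oxidative phosphorylation, was at -0.52 ± 0.31 and -0.97 ± 0.31. MRPS7, whose bacterial counterpart starts assembly of the head of the small subunit, was at -0.65 ± 0.33 and -0.83 ± 0.33, and MRPS5 at -0.31 ± 0.30 and -0.76 ± 0.30. The decoding-centre protein MRPS12 was at -0.57 ± 0.33 and -0.67 ± 0.33, MRPS16 at -0.18 ± 0.28 and -0.69 ± 0.28, MRPS2 at -0.34 ± 0.33 and -0.43 ± 0.33, and MRPS34 at -0.48 ± 0.28 and -0.57 ± 0.28. Each of these was negative on both days, with a day +7 value larger than its SE.

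The family of 3 MRPS18 genes spans both subunits, since the MRPS18A protein sits in the large subunit and those of MRPS18B and MRPS18C in the small one. MRPS18A was close to 0 on both days, at -0.08 ± 0.26 and -0.02 ± 0.26, and its day +7 sign changed with the correction of the arrays (0.081 with median centring). MRPS18B was at -0.90 ± 0.37 and -1.05 ± 0.37, and MRPS18C at -0.33 ± 0.29 and -0.47 ± 0.29. MRPS30, whose protein also sits in the large subunit, was at -0.64 ± 0.46 and -1.04 ± 0.46. MRPS36, now assigned to the 2-oxoglutarate dehydrogenase complex and not to the ribosome, was at -0.29 ± 0.31 and -0.89 ± 0.31. Genes whose proteins do not sit where their names put them were thus found on both sides of the members' median of -0.76.

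6 members were positive at day +7. MRPL38, a protein of the large subunit with a lipid-binding-protein fold, was at 0.85 ± 0.43, MRPS6 at 0.62 ± 0.41, MRPL49 at 0.57 ± 0.31, MRPL12 at 0.36 ± 0.53 and MRPL33 at 0.09 ± 0.29. MRPS6 was also the highest member at day -14, at 0.36 ± 0.41. The 4 features of MRPL38 were all positive at day +7, at 0.94, 1.07, 0.43 and 0.97, and the brightest of them had the lowest value. MRPL38, MRPL49 and the features of these genes were named after their values were seen.

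MRPS15, the counterpart of the small-subunit protein S15, stood apart from every other member. It read 0.50 and 0.68 for the diets at day -14, 0.69 and 3.01 for the diets at day +7, 0.12 and 0.89 for the days of diet M, and -2.12 and -2.99 for the days of diet S. It was the highest member on 3 of the 4 diet arrays and the lowest on both diet S day arrays, where the members' medians were positive. The fitted diet value was 0.14 ± 0.53 at day -14 and 2.30 ± 0.53 at day +7, 4.92-fold (limma adjusted p = 0.0996), and the day value in diet S was -2.10 ± 0.53 (adjusted p = 0.999). MRPS15 was measured by 1 feature, the brightest of all member features at 8141, so no second feature could be set beside it. Without both arrays of cow 8041, the day +7 diet value was 1.90 and the day value in diet S -1.77. Leaving MRPS15 out, the SD over members at day +7 was 0.47 in place of 0.58, and the median was -0.76 either way.

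Within diet M, the members lay near 0 in the comparison of the days. Of 73 members, 54 were negative, beside 47.8% of all rows, with a median of -0.10 (SD 0.21) against 0.02 over all rows, and medians of -0.11 and -0.26 on the direct arrays. At an unadjusted p of 0.05 no member passed in either direction, beside 2.62% of all rows. Of the members, 35 were negative on both direct arrays, beside 25.2% of all rows. For 65 members the SE was larger than the value. The fitted median was 0.11 without the second array of the days of diet M, so its sign changes with that array. On the first array itself the members' median was -0.11, with 54 of 73 members negative.

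The diet M day values with the smallest p did not share a sign. MRPL12 was at 0.69 ± 0.53, the highest, with array values of -0.32 and 0.42 that both lay below the fitted value. MRPS30 was lowest, at -0.59 ± 0.46, with -0.14 and -1.56 on the arrays, and it turned to 0.28 without the second of them. MRPS9 was at -0.47 ± 0.36, MRPS34 at 0.35 ± 0.28, MRPS28 at 0.33 ± 0.28 and MRPL51 at -0.32 ± 0.28. Of 40 genes with several features, 22 had features of opposite sign in this comparison (55%), where 4 did in the diet comparison at day -14 and 2 at day +7.

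Within diet S, most members had more signal after calving. In this comparison 64 members were positive and 9 negative, where 50.7% of all rows were positive, with a median of 0.26 (SD 0.34) against 0.01 over all rows. The direct arrays had medians of 0.10 and 0.64. Of the members, 43 were positive on both, beside 19.6% of all rows. Only MRPS15, the negative exception above, passed an unadjusted p of 0.05, beside 4.46% of all rows in either direction. For 46 members the SE was larger than the value in the fit of all 8 arrays. Without the second of the diet S day arrays the median was 0.09.

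MRPL46, which has a Nudix-hydrolase-like fold, was the highest member in diet S at 0.85 ± 0.42. It read 0.15 and 2.23 on the 2 arrays, and its brighter feature (brightness 427) gave 0.20, so its place rests on the dimmer feature (brightness 15.0) and on 1 array. MRPL24 was at 0.49 ± 0.25, with 0.04 and 1.05 on the arrays. MRPS24 was at 0.57 ± 0.31, MRPS17, the counterpart of S17, at 0.52 ± 0.28 and MRPL50 at 0.58 ± 0.32. For MRPS24 the arrays read 0.41 and 1.05 and for MRPS17 0.54 and 0.63, whereas MRPL50 read -0.04 and 1.33.

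**Figure D3:**
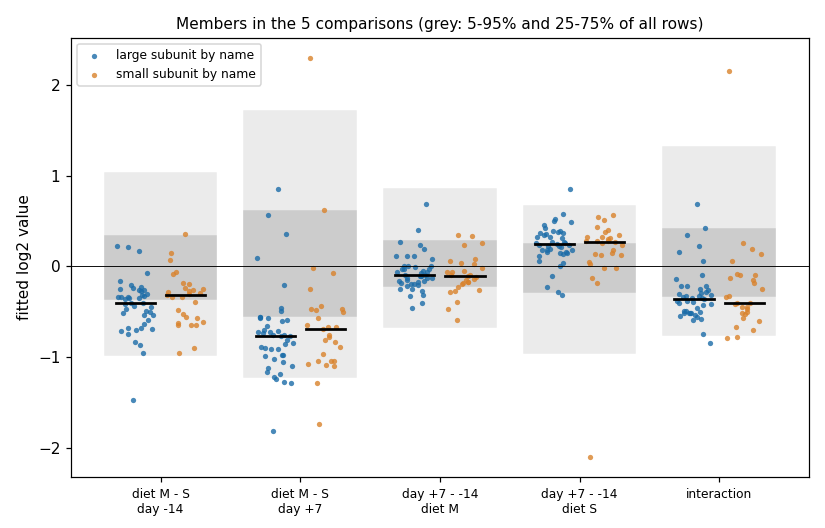
Fitted log2 values of the members in the 4 comparisons and the diet by day interaction, with 44 MRPL genes in blue and 29 MRPS genes in orange. Black bars are subunit medians, and the pale and dark grey boxes span the 5th to 95th and the 25th to 75th percentile of all rows. The MRPL and MRPS medians lie on the same side of 0 in every comparison, and the MRPS15 point is at 2.30, -2.10 and 2.16 in the diets at day +7, the days of diet S and the interaction.

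The interaction asked whether the diet difference at day +7 differed from that at day -14, which is the same quantity as the day value in diet M less that in diet S. It was negative for 62 of 73 members, beside 51.1% of all rows, with a median of -0.36 (SD 0.41) against -0.01 over all rows. At an unadjusted p of 0.05 only MRPS15 passed, at 2.16 ± 0.62 (limma adjusted p = 0.751), beside 6.28% of all rows. MRPL50 was at -0.74 ± 0.37, MRPS24 at -0.70 ± 0.35, MRPS9 at -0.79 ± 0.42, MRPL3 at -0.58 ± 0.32, MRPS17 at -0.57 ± 0.32, and MRPL46 was lowest at -0.84 ± 0.49. From the single arrays, 22 members were negative on both day arrays of diet M and positive on both of diet S, beside 5.82% of all rows. They include the stalk anchor MRPL10, the peptidyl transferase neighbour MRPL3, the membrane-anchoring protein MRPL45 and MRPS16. MRPS15 was the single member with the reverse pattern.

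With only the features of at least 64 in brightness kept, 69 members and 9658 rows remained, and 326 rows passed the adjusted threshold for the diets at day +7 (3.38%). Of these rows 294 were positive and 32 negative. The 2 members among the 32 were MRPL48, at -1.19 ± 0.25 (limma adjusted p = 0.0472), and MRPS21, at -1.30 ± 0.26 from its 1 bright feature (adjusted p = 0.0426). Both members are negative, and the 32 negative calls are 0.331% of the 9658 rows. With all its 3 features MRPS21, named here after its value was seen, was at -1.09 ± 0.28.

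Genes that work with the mitoribosome were mostly negative for the diets in the fitted values. Of 8 further mitoribosomal or ribosome-docking proteins with other symbols on the platform, 6 were negative at day -14 and all 8 at day +7. Their medians were -0.49 and -0.86. Among these 8 are MRPL57 and MRPL58, which are current names and not the platform's symbols, so the member rule left them out. On the direct day +7 arrays, whose medians were -0.27 and -0.97, 3 of the 8 were negative on both. DAP3, a GTP-binding protein of the small subunit, was at -0.85 ± 0.27 at day +7, and MRPL58, a peptidyl-tRNA hydrolase built into the large subunit, was at -0.88 ± 0.27. All 12 measured translation factors of 16 listed were negative on both days (medians -0.53 and -0.83). Among them MTFMT, which formylates the initiator methionyl-tRNA, was at -1.79 ± 0.32 (limma adjusted p = 0.0889) at day +7 and TSFM, the exchange factor of the elongation factor TUFM, at -0.96 ± 0.27.

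Aminoacyl-tRNA synthetases of mitochondria were negative in 13 of 18 at day -14 and 16 of 18 at day +7 (medians -0.37 and -0.44), with MARS2 at -1.05 ± 0.27 and WARS2 at -1.16 ± 0.34 at day +7. Of the 18, only 7 were negative on both direct day +7 arrays (medians -0.19 and -0.90), beside 28.4% of all rows. Assembly factors and enzymes that modify mitochondrial ribosomal RNA were negative in 17 and 14 of 20 (medians -0.45 and -0.56). Of these 20, 11 were negative on both direct day +7 arrays (medians -0.15 and -0.57). FASTKD2, which binds the large mitochondrial ribosomal RNA, was at -2.44 ± 0.57, and MTERF3, needed in mice for assembly of the mitoribosome, at -1.26 ± 0.28 at day +7. FASTKD2 was dim, with a brightness of 42.3, and read -0.69 and -4.23 on the direct day +7 arrays. The second of these arrays carries cow 8041. Of factors of mitochondrial DNA transcription and replication, 10 and all 11 were negative (medians -0.32 and -0.66), with SSBP1, the single-strand binding protein, at -0.86 ± 0.28 and ELAC2, which trims tRNA 3′ ends, at -2.09 ± 0.72. Protein import genes were negative in 24 and 25 of 27 (medians -0.31 and -0.63), with the chaperone TIMM9 at -1.54 ± 0.36 and the chaperonin HSPE1 at -1.13 ± 0.30 at day +7.

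The 9 measured nuclear regulators of mitochondrial genes had no common side, with medians of -0.01 and 0.27. NRF1, a transcription factor of many genes for mitochondrial proteins, was at 2.22 ± 0.56 at day -14 and 1.69 ± 0.56 at day +7 (limma adjusted p = 0.142), while the coactivator gene PPRC1 was at -1.14 ± 0.46 at day +7. Cytosolic ribosomal proteins were negative in all 73 on both days, with medians of -0.47 and -0.89. Respiratory chain and ATP synthase subunits were negative in 68 and 66 of 76, with medians of -0.32 and -0.61. The mitoribosomal median of -0.76 at day +7 lay between those of these lists, and no test of the difference was made.

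**Figure D4:**
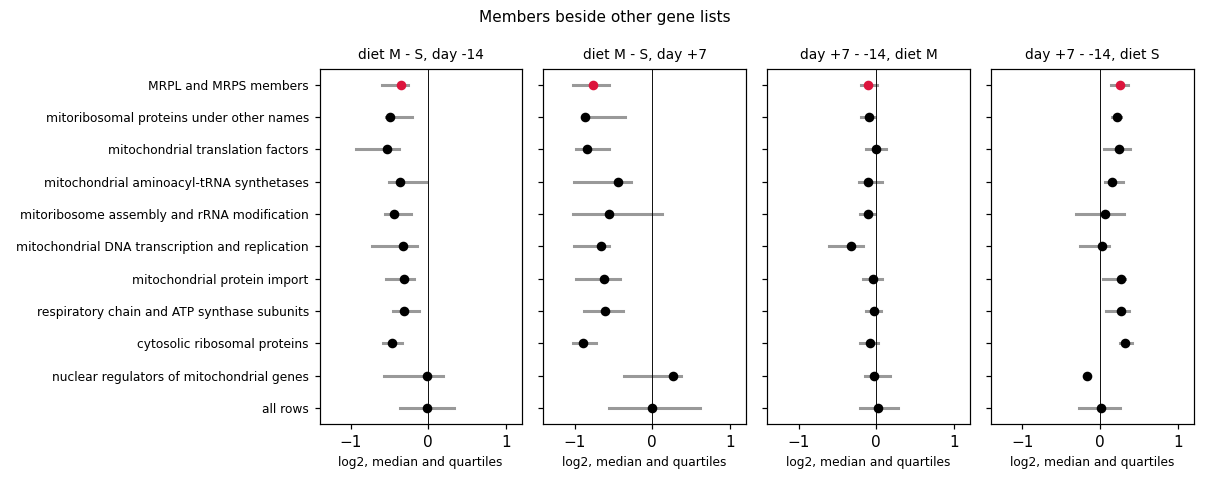
Median (point) and quartiles (bar) of the fitted log2 values of the members, in red, and of other gene lists and all rows, in black, in 4 comparisons. The lists of mitochondrial translation, import and respiration and the cytosolic ribosomal proteins lie below 0 for the diets at both days, and the nuclear regulators have medians of -0.01 and 0.27.

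Markers of leukocyte types also differed between the paired samples. Neutrophil markers (15 measured of 18) were positive in 15 at day -14 (median 0.76) and 12 at day +7 (median 0.99), the opposite side from the ribosomal genes, with day +7 array medians of -0.41 and 2.62. Monocyte markers were positive in all 7 measured on both days (medians 1.22 and 0.86, day +7 arrays -0.39 and 2.71), and T and NK markers in 9 and 8 of 10 (0.82 and 0.57). The T and NK array medians were 0.26 and 1.38 at day -14 and 0.18 and 1.11 at day +7. The 3 measured of 8 eosinophil and basophil markers were positive on both days (1.69 and 2.71, day +7 arrays -0.03 and 6.56), as were the 2 measured of 6 platelet markers (0.64 and 1.16) and 2 of 3 measured red blood cell markers. B cell markers were negative in 4 of 5 on both days (medians -0.92 and -0.67), with 1.59 and -2.44 on the day +7 arrays. Proliferating cell markers were negative in 5 of 6 (medians -0.83 and -1.35), with array medians of -1.36 and -0.93 at day -14 and -0.62 and -0.72 at day +7, and with CCNB2 at -1.43 ± 0.37 and TPX2 at -1.63 ± 0.43 at day +7. On all 4 diet arrays their medians thus had the same sign as those of the members. The T and NK marker medians had the opposite sign on all 4.

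On the first day +7 array, the medians of neutrophil and monocyte markers had the opposite sign from those on the second, while the members' medians were negative on both, at -0.49 and -0.89. Between the days of diet M, neutrophil markers were positive in all 15 (median 0.94) and T and NK markers negative in all 10 (median -0.48), where the members' median was -0.10. Proliferating cell marker medians on the 2 diet M day arrays were 0.35 and 0.07, the opposite sign from the members' -0.11 and -0.26. Between the days of diet S, neutrophil marker medians were 2.65 and -1.14 on the 2 arrays, where those of the members were 0.10 and 0.64 and those of proliferating cell markers 0.53 and 0.66. Ratios hold no level at 0, so absence of a cell type cannot be read from these arrays, and the part of cell makeup in the members' values was not tested.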

How the data were processed

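The authors deposited a log2 ratio of the 2 channels for each feature and array. The values were not normalised, as their recovered whole-number ratios show (97.8 to 98.5% of an array's values were ratios of whole numbers up to 10000 within 1e-09 on the log2 scale, against 1.89 to 2.35% after a small shift). Per the labels, 200 ng of RNA per sample was labelled, with a mean RNA integrity number of 7.7 ± 0.2. Of the scanner, image software, background correction and spot filter nothing is stated in the sources used here. Depth has no meaning for arrays; their number limits the precision.

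Each array's ratios were corrected with a loess curve (span 0.4, 4 iterations) on recovered brightness. For each feature this was the median over the arrays of the geometric mean of the 2 whole numbers. Of 43803 features, 22557 had a value on at least 7 arrays and were averaged by symbol into 14491 rows (9199 with a symbol, 1386 with 7 arrays). Members were found by platform symbol. A loop model with a dye term was fitted over all rows with limma 3.58.1 in R 4.3.3 (4 residual and 3.23 prior degrees of freedom), two-sided, with Benjamini-Hochberg adjustment over all rows. The fit was checked on simulated data. Samples of the same cow are known from the cow numbers in the labels, and the estimated correlation of 2 samples of a cow was 0.21. The main fit has no term for the cow and treats the arrays as independent. The cow as block was an alternative. The p-values reflect only how far these 8 arrays vary.

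Named genes are the 6 members with the smallest p, the highest and the lowest in each comparison, a panel chosen for the role or subunit of the protein, and the 2 genes of smallest p in each other list. Members and lists were chosen with earlier results of these data known. Alternatives covered array correction, filters, dye term, cow, array weights, averaging, left-out arrays and direct arrays only. Promoter and protein sequences were not used here.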

Additional observations from a re-analysis of the deposited data

Results flagged for a closer look

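The members' medians on the day arrays lay on opposite sides in the 2 diets. In diet M they were -0.11 and -0.26, and in diet S 0.10 and 0.64. This opposition of the medians was not tested for the family as a whole, and of single members only MRPS15, which ran the other way, passed an unadjusted p of 0.05 for the interaction. In the values as deposited, without correction of the arrays, the medians were -0.41 and -0.41 in diet M and -0.50 and 0.66 in diet S, so the first diet S array is on the other side only after correction. The uncorrected medians of all rows were -0.27 and -0.33 in diet M and -0.55 and -0.05 in diet S. Neutrophil marker medians on the same arrays were 1.01 and 1.35 in diet M and 2.65 and -1.14 in diet S; their part in the result was not tested.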

How the results depend on the processing

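The members' median kept its sign in the diets at day -14, the diets at day +7, the days of diet S and the interaction under all alternatives run. Leaving out single arrays gave -0.44 to -0.32, -0.87 to -0.67, 0.09 to 0.32 and -0.46 to -0.22 in that order, and -0.20 to 0.11 for the days of diet M. Without correction of the arrays the diet M day median was -0.38, where the median of all rows was -0.30. From the direct arrays only, the median at day -14 was -0.48. With cow as replicate block the median at day +7 was -0.76 and no call changed. Members past the adjusted threshold numbered 0 in every comparison and alternative except 2 at day +7 with features of at least 64 in brightness, where fewer rows were tested. All rows past it at day +7 then numbered 326, against 0 with dim features kept and 1 each for uncorrected values and for values on all 8 arrays. The count of members at an unadjusted p of 0.05 at day +7 was 16 to 41 with single arrays left out. Signs turned for MRPL12 at day +7 (-0.091 with brightness of at least 64, -0.17 to 0.65 with single arrays left out), MRPL33 at day +7 (-0.020 to 0.25), MRPS30 between the days of diet M (-1.06 to 0.28) and MRPS18A at day +7 (0.015 uncorrected, 0.081 median-centred, 0.033 without both arrays of cow 8041, -0.19 to 0.036 with single arrays left out); the cause was not tested. Dim features rest on small recovered whole numbers, and 11 members had a brightness under 64.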
